A study of Rattus norvegicus with 45 samples.

Results

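Ribosomal protein genes of rat brain were examined in 2 classes. The cytosolic class held 47 genes, 33 of the large and 14 of the small subunit, with platform symbols that start with Rpl or Rps and go on with a number or the letter P. The mitochondrial class held 73 genes, 46 of the large and 27 of the small subunit, with symbols that start with Mrpl or Mrps. Kinases of the Rps6k family and pseudogenes were dropped, and each gene was read from the probe set with the highest mean log2 intensity over all arrays. These 120 genes were part of 14218 genes with a probe set of their own on the array. All 73 mitochondrial genes and 40 of the 47 cytosolic genes passed the filter on low intensity, beside 10248 genes in all, and were tested.

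Frontal cortex, hippocampus and striatum were taken from 15 male Sprague-Dawley rats, and the RNA of each region was hybridized to Affymetrix rat arrays, which gave 45 arrays. For 21 days, from an age of 9 to 11 weeks, minipumps under the skin delivered vehicle, haloperidol at 0.25 mg/kg/d or risperidone at 5 mg/kg/d to 5 rats each. The vehicle was dilute acetic acid, and no genetic change was made to any group. Both are antipsychotic drugs. Haloperidol acts mainly as an antagonist of dopamine receptors, while risperidone also has a high affinity for serotonin receptors. The sample labels call the tissue a mouse brain region while giving rat as the organism and SD as the strain. The deposited values were linear intensities, used here on the log2 scale, and array medians ran from 87.93 to 110.4.

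The cytosolic ribosome translates nearly all cellular mRNAs, in the cell body as well as in dendrites and at synapses. The mitochondrial ribosome translates the few mRNAs of the mitochondrial genome, which encode subunits of the respiratory chain, and its proteins are encoded in the nucleus, made in the cytosol and imported. mRNAs of the cytosolic class belong to the TOP mRNAs, which begin with a pyrimidine tract at the cap and are controlled together in translation through mTOR and the binding protein Larp1.

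The start sites of members named in the comparisons below are shown first. Whether these stretches bear on the differences was not tested. Sequences are from RefSeq on GRCr8 and run 5′ to 3′ from 70 bases before to 20 bases after the start of transcription. Capitals mark CTTTC within 25 bases of the start on the transcribed strand, as a sign of the pyrimidine tract, and CCGGAAG (an ETS motif), AAGATGGC (a YY1 motif) or TCTCGCGA on either strand. The first set is cytosolic. Rpl18 was the cytosolic gene called after risperidone, and the others differed between regions.

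Rpl18 (chr1:105325200-105325289, plus strand): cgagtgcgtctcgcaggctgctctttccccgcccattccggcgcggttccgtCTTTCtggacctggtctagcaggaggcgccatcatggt
Rps28 (chr7:15311314-15311403, minus strand): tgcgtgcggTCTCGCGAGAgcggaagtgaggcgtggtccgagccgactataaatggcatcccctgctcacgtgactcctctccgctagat
Rpl22 (chr5:168117891-168117980, plus strand): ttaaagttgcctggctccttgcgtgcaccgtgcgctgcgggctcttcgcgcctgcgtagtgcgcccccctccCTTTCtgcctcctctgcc
Rpl35a (chr11:81235002-81235091, minus strand): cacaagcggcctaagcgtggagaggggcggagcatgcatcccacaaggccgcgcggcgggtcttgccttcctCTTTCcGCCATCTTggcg
Rpl39 (chrX:121195877-121195966, minus strand): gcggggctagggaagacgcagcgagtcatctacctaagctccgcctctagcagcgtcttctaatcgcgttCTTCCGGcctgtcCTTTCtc

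The second set is mitochondrial, and holds 4 genes with large differences between striatum and frontal cortex.

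Mrpl52 (chr15:31852866-31852955, plus strand): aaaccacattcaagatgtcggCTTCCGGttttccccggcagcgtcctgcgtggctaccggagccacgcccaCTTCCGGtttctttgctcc
Mrpl53 (chr4:117172973-117173062, plus strand): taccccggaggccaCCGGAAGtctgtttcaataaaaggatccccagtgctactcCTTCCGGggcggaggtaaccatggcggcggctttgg
Mrps21 (chr2:186103332-186103421, minus strand): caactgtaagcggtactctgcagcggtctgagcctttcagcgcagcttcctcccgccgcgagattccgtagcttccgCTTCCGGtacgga
Mrps16 (chr15:3967739-3967828, plus strand): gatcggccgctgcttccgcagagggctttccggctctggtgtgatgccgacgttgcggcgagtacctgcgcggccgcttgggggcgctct

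A start site was listed for 42 cytosolic and 59 mitochondrial members. CTTTC lay within 25 bases of the start in 42.9% of the cytosolic and 13.6% of the mitochondrial members, against 6.32% of 18998 protein-coding genes. CCGGAAG, searched from 250 bases before to 50 bases after the start on both strands, was found in 23.8% of cytosolic, 33.9% of mitochondrial and 11.2% of all promoters. AAGATGGC was found in 9.52%, 23.7% and 3.92%, and TCTCGCGA in 19.0%, 3.39% and 1.27%. In Rpl39 the ETS motif and CTTTC both lie after the start, and in Rpl35a CTTTC is followed by the YY1 motif, with no overlap in either gene. In Rps28 the capitals are TCTCGCGA and, on the other strand, an overlapping match of the same motif. Mrpl52 and Mrpl53 each hold 2 ETS motifs in the stretch shown, while none of the searched motifs is in the stretch of Mrps16. Within the cytosolic class, the median difference after risperidone in frontal cortex was 0.15 on the log2 scale in 17 tested genes with CTTTC at the start and 0.14 in 19 without it. In striatum against frontal cortex of vehicle rats it was 0.20 with and 0.19 without CTTTC in cytosolic genes, and 0.29 in 8 mitochondrial genes with and 0.08 in 51 without it. For CCGGAAG in that comparison, the median was 0.11 in 9 cytosolic genes with and 0.22 in 27 without it, and 0.12 in 20 mitochondrial genes with and 0.05 in 39 without it. For CCGGAAG after risperidone in frontal cortex it was 0.13 and 0.14 in cytosolic genes and 0.10 and 0.08 in mitochondrial genes. These splits were not tested.

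Across the 6 comparisons of a drug with vehicle, 1 ribosomal protein gene was called. A call needed a difference of 1.2-fold or more with an adjusted p below 0.05. Rpl18, a protein of the large cytosolic subunit, rose in frontal cortex after risperidone. Its log2 intensity was 11.32, 11.42, 11.28, 11.33 and 11.37 in the 5 vehicle rats and 11.55, 11.73, 11.77, 11.58 and 11.58 in the 5 risperidone rats. All risperidone rats were above all vehicle rats. The rise was 1.23-fold (log2 0.30, standard error 0.06, adjusted p = 0.00347 by limma, Benjamini-Hochberg over all probe sets). The haloperidol rats, at 11.29 to 11.54, overlapped with the vehicle rats and lay below all risperidone rats. This was 1 of 40 cytosolic and 0 of 73 mitochondrial genes, where 1.93% of all genes rose and 1.37% fell in that comparison, so that the cytosolic share was near that of all genes. The call held in each fit that left out 1 rat. Olfactory bulb markers, 4 of 8 listed genes tested, averaged 7.28 to 10.07 in the risperidone arrays of frontal cortex and 6.89 to 7.16 in the vehicle arrays. Without the arrays high in these markers, which leaves 2 risperidone rats, the difference of Rpl18 was 0.22 (adjusted p = 0.12). In the same comparison the 7 tested striatum markers differed by 0.17 to 0.45 (median 0.28), with 0 called. The part of neighboring tissue in the result was not tested. In bulk tissue, a change in the share of a cell type and a change of RNA per cell cannot be told apart.

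Below 1.2-fold, more of both classes met the adjusted p after risperidone in frontal cortex. With no minimum fold, 14 of 40 cytosolic and 8 of 73 mitochondrial genes were above vehicle at an adjusted p under 0.05 and none were below, where 4.46% of all genes were above and 1.97% below. The 13 cytosolic genes other than Rpl18 differed by 1.10-fold to 1.19-fold. Rps28, a protein of the small subunit, had the largest of these differences (log2 0.25, standard error 0.06, adjusted p = 0.0174). Its log2 intensity was 11.07 to 11.34 in vehicle and 11.25 to 11.63 in risperidone rats, and the groups overlapped. Rps3 and Rps16, also of the small subunit, differed by 0.21 (adjusted p = 0.0147) and 0.19 (adjusted p = 0.014). Rpl34 and Rpl14 of the large subunit differed by 0.22 (adjusted p = 0.0194) and 0.21 (adjusted p = 0.0354).

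The 8 mitochondrial genes differed by 1.14-fold to 1.19-fold. They were Mrpl2, Mrpl22, Mrpl40, Mrpl43, Mrpl52 and Mrpl54 of the large subunit and Mrps24 and Mrps34 of the small subunit. Mrpl22 had the largest difference (log2 0.26, standard error 0.07, adjusted p = 0.02). It measured 8.87, 8.94, 9.12, 8.89 and 8.87 in vehicle rats and 9.06, 9.36, 9.23, 9.21 and 9.11 in risperidone rats. Vehicle rat 3 lay above 2 of the risperidone rats. Mrpl40 was at 7.63 to 7.85 in vehicle and 7.82 to 8.07 in risperidone rats (log2 difference 0.23, adjusted p = 0.0174), and its second probe set differed by 0.04 (adjusted p = 0.775). Mrpl52 was at 8.37 to 8.54 in vehicle and 8.45 to 8.85 in risperidone rats (log2 difference 0.22, adjusted p = 0.0394). Without the arrays high in olfactory bulb markers, 0 of 40 cytosolic and 1 of 73 mitochondrial genes met the adjusted p, beside 93 of all 10248 genes. That mitochondrial gene was lower after risperidone.

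**Figure D1:**
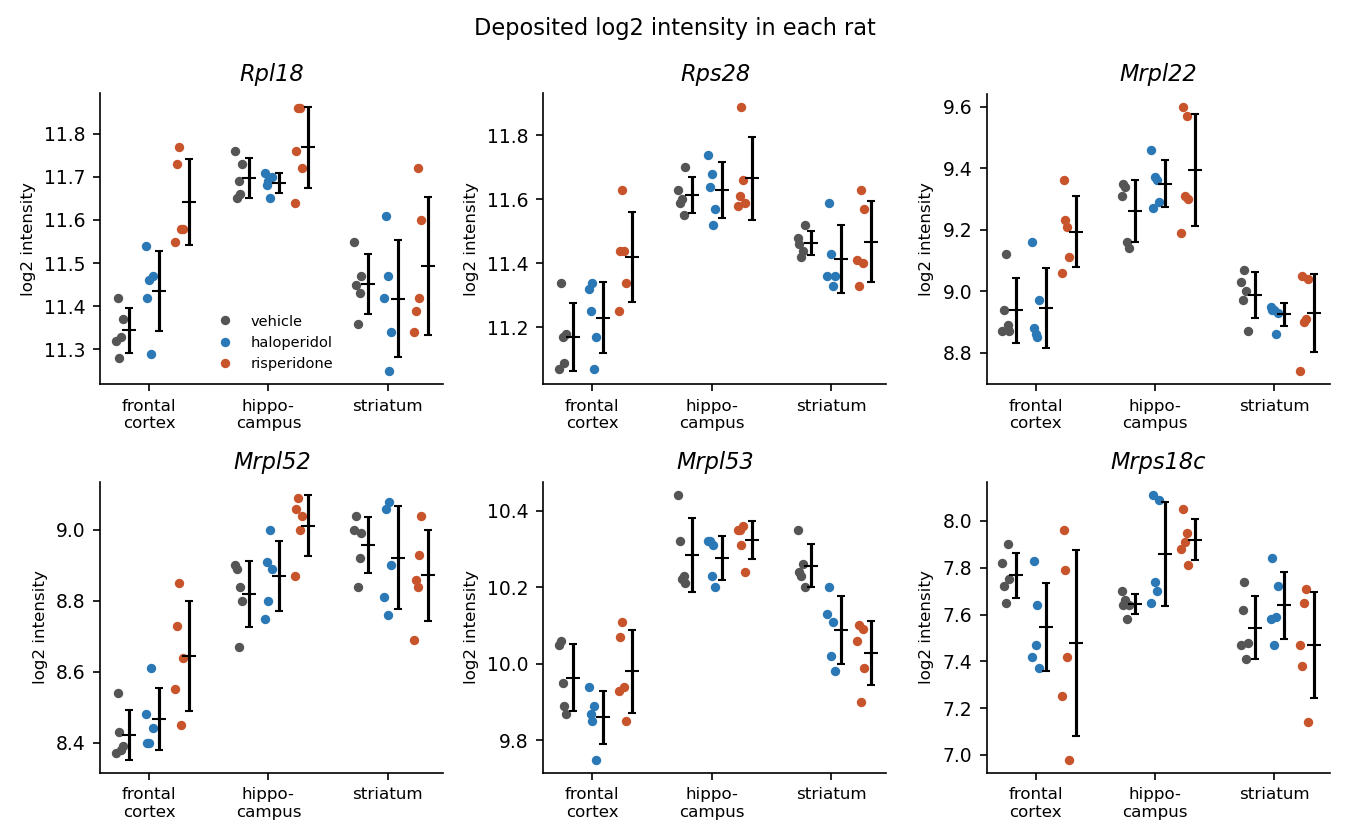
Log2 intensity as deposited of 6 ribosomal protein genes in each rat, by region and treatment. Points are rats, and the bar beside them is the mean with 1 SD. Rpl18 shows no overlap of risperidone and vehicle rats in frontal cortex, and Mrpl53 shows none in striatum.

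By class, the differences after risperidone in frontal cortex were small and nearly all of 1 sign. The median difference was 0.14 on the log2 scale over 40 cytosolic genes, of which 37 were above 0, and 0.10 over 73 mitochondrial genes, of which 64 were above 0. The median of all 10248 genes was 0.03, and 61.1% of them were above 0. In both cytosolic subunits the median was 0.14, and it was 0.11 in the large and 0.08 in the small mitochondrial subunit. The 35 tested probe sets that match several genes, a ribosomal protein gene among them, had a median of 0.14, with 33 above 0. Without the arrays high in olfactory bulb markers the medians were 0.07 in each class and 0.02 over all genes. Above 0 were then 30 of 40 and 52 of 73 genes, beside 5806 of 10248 genes.

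The shift was unequal between rats. As the median over the class of each rat's deviation from the vehicle mean, the cytosolic genes of frontal cortex stood at -0.067, 0.094, -0.027, -0.028 and 0.036 in the vehicle rats. They stood at 0.045, 0.182, 0.267, 0.119 and 0.112 in the risperidone rats. The highest vehicle rat lay above the lowest risperidone rat, so that the groups overlapped. The mitochondrial genes stood at -0.071 to 0.053 in vehicle and at 0.052, 0.227, 0.200, 0.053 and -0.061 in risperidone rats. Risperidone rat 5 was thus above the vehicle mean in cytosolic and below it in mitochondrial genes. The arrays high in olfactory bulb markers were those of risperidone rats 2, 3 and 5. Of these, rats 2 and 3 had the highest medians in both classes. The part of these markers, or of the striatum markers given above, in the shift was not tested.

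**Figure D2:**
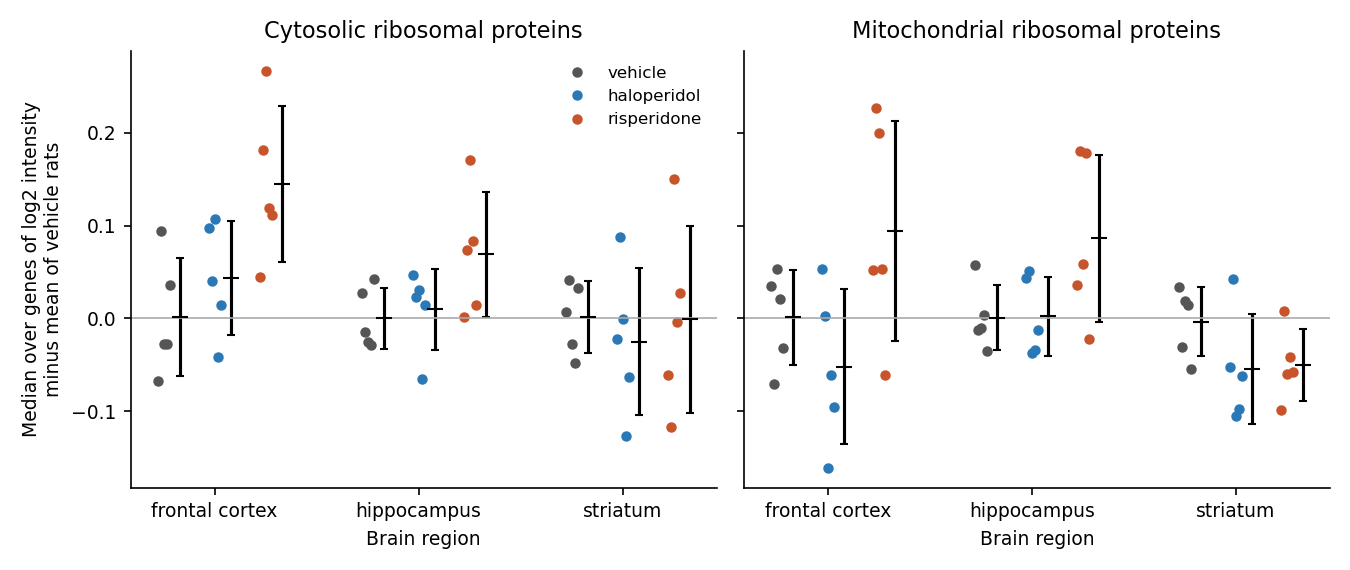
Median over the 40 cytosolic (left) and 73 mitochondrial (right) genes of the log2 intensity minus the mean of the vehicle rats of the region. Points are rats, and bars are the mean with 1 SD. The cytosolic medians of the risperidone rats run from 0.045 to 0.267 in frontal cortex and from -0.117 to 0.150 in striatum.

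In hippocampus after risperidone, 0 ribosomal protein genes were called, where 0.0781% of all genes rose and 0.0390% fell, and with no minimum fold 0.0878% were higher. At an unadjusted p under 0.05 there were 9 of 40 cytosolic and 13 of 73 mitochondrial genes, beside 1669 of 10248 genes. The class medians were 0.06 and 0.08, beside 0.03 over all genes. Above 0 were 37 of 40 and 69 of 73 genes, beside 61.4% of all genes. The lowest p was that of Mrps34 (log2 0.20, standard error 0.06, adjusted p = 0.106), followed by Rpl6 of the large cytosolic subunit (log2 0.16, adjusted p = 0.144) and Mrpl52 (log2 0.19, adjusted p = 0.152). All 46 tested mitochondrial large subunit genes were above 0, while the cytosolic class median of single rats ran from 0.002 to 0.171 against -0.029 to 0.043 in vehicle rats. Meningeal and choroid plexus markers, 8 of 10 listed genes tested, averaged 6.82 to 8.97 in these risperidone arrays and 6.62 to 7.59 in vehicle. Without the arrays high in these markers the class medians were 0.02 and 0.07, beside 0.03 over all genes, so that the cytosolic median was no longer above it. The part of these markers in the result was not tested.

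In striatum after risperidone, 0 genes were called, where 0.995% of all genes rose and 2.00% fell. The cytosolic median was 0.00, with 23 of 40 genes above 0, and 0 cytosolic genes had an unadjusted p under 0.05. The mitochondrial median was -0.04, beside -0.02 over all genes. Below 0 were 52 of 73 mitochondrial genes, beside 5670 of 10248 genes. With array medians subtracted the mitochondrial median was 0.01, beside 0.03 over all genes. At an unadjusted p under 0.05 there were 12 of 73 mitochondrial genes, beside 2197 of 10248 genes. Mrpl53, a large subunit protein, was the only member at an adjusted p under 0.05 with no minimum fold, where 1.40% of all genes were higher and 3.10% lower. It measured 10.35, 10.24, 10.23, 10.26 and 10.20 in vehicle rats and 10.06, 10.10, 9.90, 10.09 and 9.99 in risperidone rats. All risperidone rats were below all vehicle rats, by 0.23 in the mean on the log2 scale (1.17-fold, standard error 0.05, adjusted p = 0.00601). In haloperidol rats Mrpl53 measured 10.13, 10.20, 10.02, 10.11 and 9.98, at or below the lowest vehicle rat (log2 -0.17, standard error 0.05, adjusted p = 0.124). Mrps35 and Mrpl38 had the next lowest p, at -0.26 (adjusted p = 0.0965) and -0.18 (adjusted p = 0.0953). Pyramidal neuron markers, 7 of 8 listed genes tested, averaged 5.46 to 7.92 in risperidone and 5.49 to 5.97 in vehicle arrays of striatum. Without the arrays high in them, the cytosolic median was -0.06, with 4 of 40 genes above 0. The median over all genes was then -0.03, with 4052 of 10248 genes above 0.

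After haloperidol, 0 ribosomal protein genes were called in any region. Over all genes, 0.0488% rose and 0.0976% fell in frontal cortex and 0 did so in hippocampus. The striatum had 0.0488% up and 0.215% down, and 0.0683% up with no minimum fold. In frontal cortex the class medians lay on opposite sides of 0, at 0.04 in cytosolic and -0.05 in mitochondrial genes, beside -0.03 over all genes. Relative to all genes they were 0.07 and -0.02. Above 0 were 35 of 40 cytosolic genes, and below 0 were 63 of 73 mitochondrial genes, beside 6588 of 10248 genes below 0. The mitochondrial median was 0.01 after quantile normalization over all arrays, as was that of all genes. At an unadjusted p under 0.05 there were 2 of 40 cytosolic and 7 of 73 mitochondrial genes, beside 1296 of 10248 genes. Rpl34 had the lowest cytosolic p (log2 0.13, adjusted p = 0.294). Mrpl47 (log2 -0.20, adjusted p = 0.189) and Mrpl1, of the L1 stalk of the large subunit (log2 -0.23, adjusted p = 0.248), had the lowest mitochondrial p. Beside these shifts, 5 oligodendrocyte markers differed by 0.17 to 0.48 (median 0.47) and 4 olfactory bulb markers by 0.23 to 0.90 (median 0.38). Without the 1 haloperidol array high in olfactory bulb markers the class medians were 0.04 and -0.04, beside -0.02 over all genes. In hippocampus the medians were 0.01 and 0.00. In striatum they were -0.02 and -0.06, beside -0.02 over all genes, and Mrps21 followed Mrpl53 with a difference of -0.14 (adjusted p = 0.183). There the 7 pyramidal neuron markers differed by 0.02 to 1.55 (median 0.49), and the part of any of these markers was not tested.

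**Figure D3:**
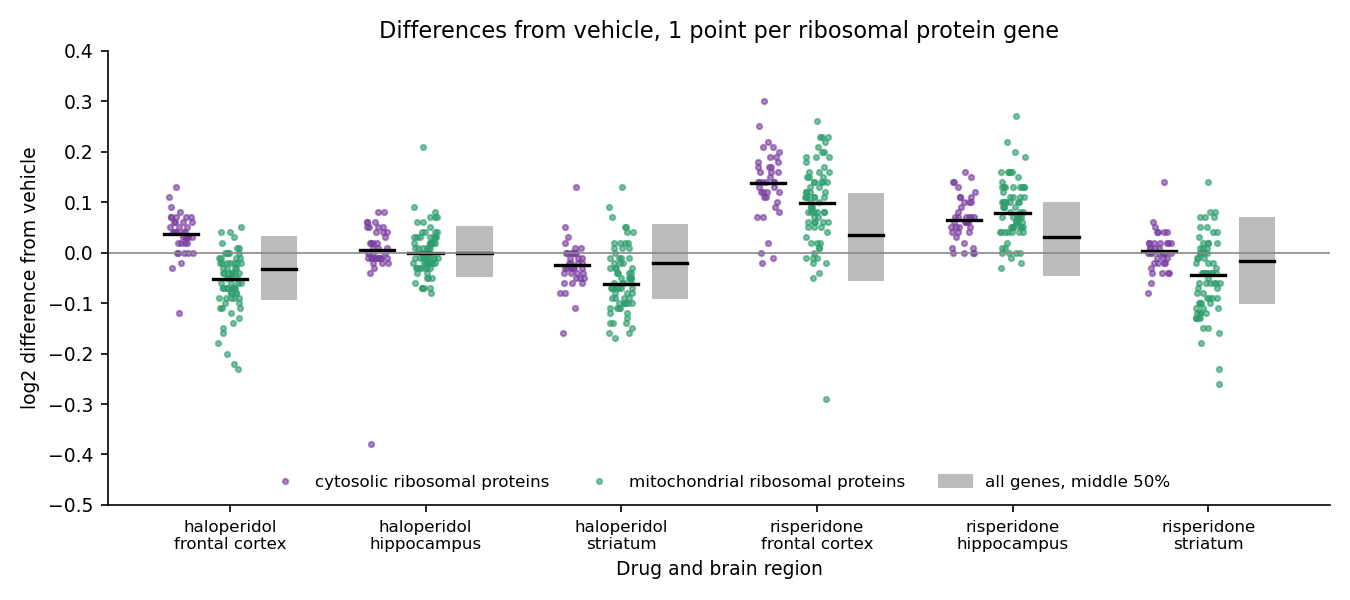
Log2 difference from vehicle of each tested ribosomal protein gene (points) with the class median (black line), by drug and region. Grey boxes span the middle 50% of all 10248 genes, with their median. Cytosolic genes after risperidone in frontal cortex lie around 0.14, and mitochondrial genes after haloperidol in frontal cortex around -0.05 (0.01 after quantile normalization).

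Risperidone was also set against haloperidol. No ribosomal protein gene was called in any region, where in frontal cortex 0.625% of all genes were higher and 0.254% lower after risperidone. With no minimum fold, 7 mitochondrial and 0 cytosolic genes were higher in frontal cortex at an adjusted p under 0.05, where 1.92% of all genes were higher and 0.273% lower. Mrpl43 differed by 0.25 (standard error 0.06, adjusted p = 0.0352), Mrpl22 by 0.25 (adjusted p = 0.0423) and Mrps34 by 0.24 (adjusted p = 0.0411). Mrpl23, Mrpl27, Mrpl37 and Mrpl58, a release factor of the mitochondrial ribosome, differed by 0.18 to 0.20. The class medians were 0.16 in mitochondrial and 0.11 in cytosolic genes, beside 0.06 over all genes. Above 0 were 72 of 73 mitochondrial genes, beside 70.4% of all genes. At an unadjusted p under 0.05 there were 22 of 40 cytosolic and 52 of 73 mitochondrial genes in frontal cortex, beside 2407 of 10248 genes. The corresponding counts were 1 and 8 in hippocampus and 0 and 1 in striatum, beside 569 and 386 of all genes. In the same contrast of frontal cortex, the 4 olfactory bulb markers differed by 0.54 to 1.5 (median 0.88) and the 7 striatum markers by a median of 0.35, and their part in the result was not tested. With 1 rat left out at a time, 0 to 8 ribosomal protein genes were called. The count was 8 without haloperidol rat 1 or without risperidone rat 5 and 2 without risperidone rat 1 or 4. Counts over all genes in these fits are not given here.

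Whether a drug acted unequally in 2 regions was tested in the same fit. For haloperidol 0 ribosomal protein genes were called, where between striatum and frontal cortex 0.0195% of all genes were higher and 0.00976% lower. For risperidone, 5 mitochondrial genes had a lower effect in striatum than in frontal cortex, where 2.22% of all genes did. These were Mrpl22 (log2 -0.32, standard error 0.08, adjusted p = 0.0295), Mrpl38 (-0.30, adjusted p = 0.0347), Mrpl40 (-0.28, adjusted p = 0.0304), Mrpl52 (-0.31, adjusted p = 0.0308) and Mrps24 (-0.30, adjusted p = 0.0253). Mrps24 measured 9.10 to 9.29 in vehicle and 9.17 to 9.55 in risperidone rats of frontal cortex. In striatum it measured 9.43 to 9.60 in vehicle and 9.25 to 9.51 in risperidone rats, so that the groups overlapped in each region. Mrpl38 had a lower effect in striatum than in hippocampus too (-0.34, adjusted p = 0.0259), as had Mrpl53 (-0.27, adjusted p = 0.0234), where 1.08% of all genes did. Both calls were lost with no random block, with array medians subtracted and without the arrays high in neighboring tissue markers (adjusted p = 0.202 for Mrpl38 and 0.184 for Mrpl53), and that of Mrpl53 also after quantile normalization. Over all tested members, the effect in striatum minus that in frontal cortex had a median of -0.14 in cytosolic and -0.15 in mitochondrial genes, beside -0.05 over all genes. None of the 5 genes with a lower effect in striatum than in frontal cortex stayed called with array medians subtracted, with quantile normalization, without a random block for the rat, with all probe sets tested or without the arrays high in neighboring tissue markers.

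Mrps18c, one of the S18 paralogs of the small mitochondrial subunit, had a higher risperidone effect in hippocampus than in frontal cortex (log2 0.56, standard error 0.15, adjusted p = 0.0427), where 0.751% of all genes did, or 0.800% with no minimum fold. In frontal cortex it measured 7.82, 7.72, 7.65, 7.90 and 7.75 in vehicle and 7.25, 7.96, 7.79, 7.42 and 6.98 in risperidone rats. In hippocampus it measured 7.58 to 7.70 in vehicle and 7.81 to 8.05 in risperidone rats, with no overlap. Mrps18c has 3 probe sets, of which 2 were tested, and the other tested one gave -0.01 for the same contrast (adjusted p = 0.982). The call was lost in 8 of 10 fits that left out 1 rat, where the adjusted p reached 0.133, and in the alternatives with all probe sets tested, with no random block or with the mean of all its probe sets.

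Other genes of translation were read from 4 lists. No gene was called in any comparison of a drug with vehicle, out of 14 other TOP mRNAs, 30 genes of ribosome assembly, 26 of mitochondrial translation and assembly and 19 mTOR and Myc regulators. In frontal cortex after risperidone the list medians were 0.13, 0.08, 0.09 and 0.04, in the same order. Against haloperidol in frontal cortex, 2 assembly factors of the large cytosolic subunit were higher after risperidone, Pes1 by 0.31 (standard error 0.08, adjusted p = 0.0498) and Rrs1 by 0.33 (standard error 0.09, adjusted p = 0.0423), out of 30 genes of the list, where 0.625% of all genes were higher and 0.254% lower. Their differences from vehicle were 0.25 (adjusted p = 0.0655) and 0.24 (adjusted p = 0.0893). The risperidone effect was lower in striatum than in frontal cortex in Aurkaip1, a protein of the small mitochondrial subunit that the symbol rule leaves out (-0.30, adjusted p = 0.021). It was also lower in Mxd4, which competes with Myc for Max (-0.33, adjusted p = 0.0154). Each was the 1 gene called in its list, out of 26 and 19, where 2.22% of all genes had a lower effect. In each of these lists 1 gene also had a lower effect in striatum than in hippocampus, where 1.08% of all genes did. The calls of the lists were not followed through the alternatives.

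Levels of the regions were compared in the 5 vehicle rats, each of which gave all regions. The deposited hippocampus arrays had the higher medians, so these comparisons were made after quantile normalization over all 45 arrays. As deposited, the median of all genes was 0.25 higher in hippocampus than in frontal cortex and 0.30 lower in striatum than in hippocampus. On the common scale these medians were 0.01 and 0.02. The markers fitted the labels, since the pyramidal neuron list averaged 9.02 to 9.27 in frontal cortex and 5.49 to 5.97 in striatum of vehicle rats.

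In striatum against frontal cortex the cytosolic class lay above all genes. Of 40 cytosolic genes, 8 were higher and 0 lower in striatum, and of 73 mitochondrial genes 13 were higher and 3 lower, where 22.8% of all genes were higher and 20.9% lower. Both shares of higher genes were thus near or below that of all genes. The cytosolic median was 0.19 and the mitochondrial median 0.08, beside 0.02 over all genes. Above 0 were 37 of 40 and 49 of 73 genes, beside 52.7% of all genes. As deposited, 2 cytosolic genes were higher, and 7 mitochondrial genes were higher and 7 lower, where 1810 of 10248 genes were higher and 2706 lower. The class medians were then 0.08 and -0.04, beside -0.06 over all genes. With array medians subtracted, 3 cytosolic genes were higher, where 2166 of all genes were. On the common scale with no minimum fold, 30 of 40 cytosolic genes were higher and 0 lower, where 34.8% of all genes were higher and 30.9% lower.

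Rps28 led the cytosolic genes (log2 0.44, standard error 0.06, adjusted p = 2.12e-08). On the common scale it measured 11.06, 11.38, 11.17, 11.09 and 11.21 in frontal cortex and 11.64, 11.61, 11.55, 11.59 and 11.69 in striatum. The regions did not overlap, and hippocampus lay between them at 11.37 to 11.50, where its lowest rat was below the highest of frontal cortex. Rpl22, a large subunit protein that also binds RNA outside the ribosome, was at 10.78 to 11.12 in frontal cortex, 11.11 to 11.21 in hippocampus and 11.31 to 11.41 in striatum. It differed by 0.41 between striatum and frontal cortex (standard error 0.05, adjusted p = 4.25e-09). Rpl27 and Rps23, which lies at the decoding site, differed by 0.33 each (adjusted p = 3.01e-08 and 2.89e-10), and Rpl7 by 0.30 (adjusted p = 3.64e-08). As deposited these 3 were not called, while Rps28 and Rpl22 were. The call of Rpl7 was also lost with the mean of its probe sets.

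Mrpl52, of the large mitochondrial subunit, had the largest difference of all members. It measured 8.39, 8.58, 8.46, 8.43 and 8.46 in frontal cortex and 9.13, 9.17, 8.97, 9.07 and 9.13 in striatum (1.55-fold, log2 0.63, standard error 0.06, adjusted p = 4.78e-13). Hippocampus lay between, at 8.46 to 8.68, and overlapped with frontal cortex. The second probe set of Mrpl52 was also higher in striatum (log2 0.48, adjusted p = 0.0328). Mrps16 was at 8.95 to 9.14, 9.36 to 9.50 and 9.50 to 9.73 in frontal cortex, hippocampus and striatum, and was called higher than in frontal cortex in hippocampus (log2 0.38, adjusted p = 7.58e-08) and in striatum (log2 0.54, adjusted p = 8.85e-12). Mrps21 was at 9.85 to 9.92, 10.06 to 10.14 and 10.28 to 10.49 in the same order, with no overlap between any of them, and differed by 0.47 between striatum and frontal cortex (adjusted p = 4.9e-14). Mrps24 and Mrpl53 differed by 0.45 and 0.44 (adjusted p = 1.18e-10 and 1.56e-12), and the call of Mrps24 was lost with the mean of its probe sets.

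Lower in striatum than in frontal cortex were Mrpl13 (log2 -0.35, adjusted p = 5.56e-07), Mrpl37 (log2 -0.35, adjusted p = 2.34e-09) and Mrpl49 (log2 -0.26, adjusted p = 3.1e-06). Mrpl37 measured 9.25 to 9.42 in frontal cortex and 8.87 to 9.07 in striatum, and its other tested probe set was lower as well (log2 -0.51, adjusted p = 3.46e-08). The second probe set of Mrpl49 differed by -0.08 (adjusted p = 0.208). Mrps18c, which was -0.19 by the probe set used, was 0.32 by the other tested one (adjusted p = 2.41e-06), so these 2 differed in direction, and the one left did not pass the filter.

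**Figure D4:**
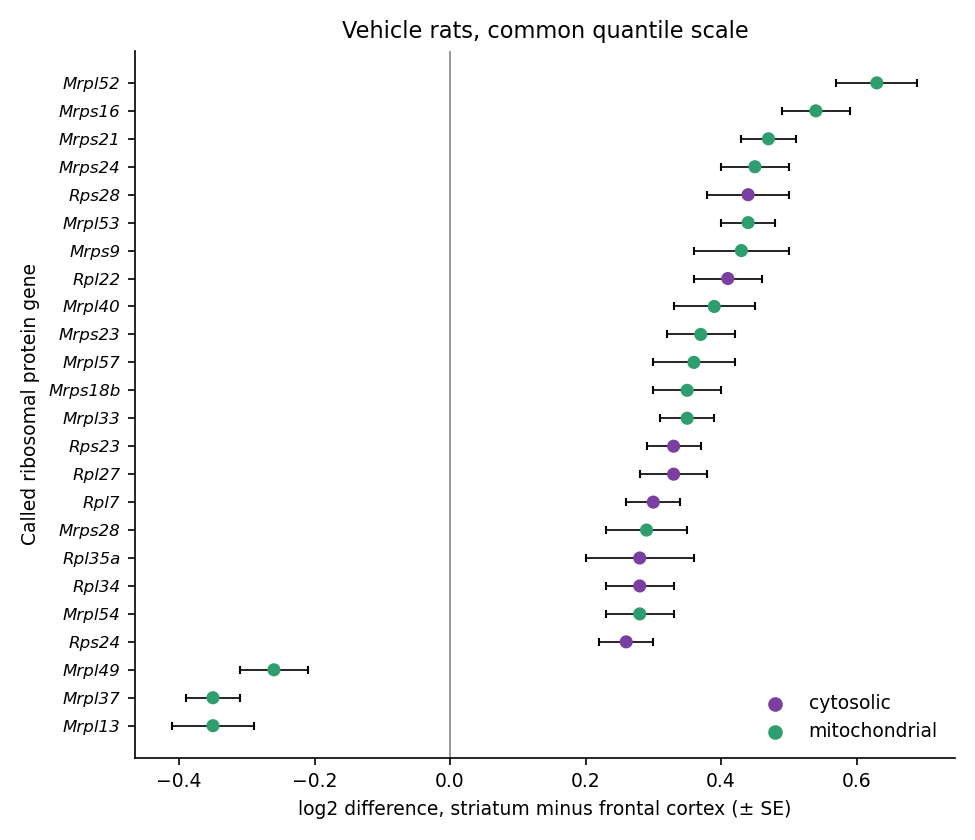
Log2 difference between striatum and frontal cortex of the 24 called ribosomal protein genes in vehicle rats, on the common quantile scale, with the standard error. The 8 cytosolic genes lie between 0.26 and 0.44. The mitochondrial genes reach 0.63 in Mrpl52 and -0.35 in Mrpl13 and Mrpl37.

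Between striatum and hippocampus, 8 cytosolic genes were higher and 0 lower in striatum, and 9 mitochondrial genes were higher and 4 lower, where 22.8% of all genes were higher and 21.3% lower. Rpl35a (log2 0.35, standard error 0.08, adjusted p = 0.000288) and Rpl24 (0.32, adjusted p = 1.79e-06) led the cytosolic genes, followed by Rpl37a and Rpl6 at 0.29 and Rpl39, at the exit tunnel, at 0.28. All 8 belong to the large subunit, as did 29 of the 40 tested cytosolic genes. The median was 0.18 in the large and 0.17 in the small cytosolic subunit, so that the subunits hardly differed in it. Among the mitochondrial genes Mrpl52 (0.49), Mrpl32 (0.38), Mrps18b (0.36), Mrpl33 and Mrps24 (0.33 each) were highest in striatum, and Mrps6 (-0.34), Mrpl37 (-0.30), Mrpl47 and Mrpl17 (-0.29 each) were lower. With the mean of all probe sets of a gene, the calls of Mrpl37 and Mrps24 were lost. With the intensities as deposited, 0 members were higher in striatum and 8 cytosolic and 42 mitochondrial genes were lower. Of all 10248 genes, 828 were then higher and 5528 lower, so that the direction of this comparison rests on the scale. Relative to the median of all genes, the cytosolic median was 0.15 higher on the common scale and 0.14 higher as deposited.

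Between hippocampus and frontal cortex, on the common scale, no cytosolic gene was higher and Rpl39 was lower (log2 -0.35, standard error 0.06, adjusted p = 2.68e-06), where 14.1% of all genes were higher and 14.7% lower. Rpl39 measured 8.37, 8.63, 8.46, 8.47 and 8.60 in frontal cortex and 8.29, 8.14, 8.09, 8.06 and 8.21 in hippocampus, with no overlap. As deposited, 12 cytosolic and 39 mitochondrial genes were higher in hippocampus and 0 were lower, where 4789 of 10248 genes were higher and 626 lower. These counts thus rest on the scale. Rpl39 then differed by -0.10, and neither it nor Mrpl42, Mrpl51 or Mrps18c was called. Mrps6 (0.41, adjusted p = 0.000359), Mrps16, Mrps33 (0.30, adjusted p = 1.53e-06) and Mrpl57 (0.28, adjusted p = 0.000301) were higher in hippocampus. Mrps18c (-0.39, adjusted p = 0.00175), Mrpl42 (-0.33, adjusted p = 1.4e-06) and Mrpl51 (-0.27, adjusted p = 1.16e-05) were lower. With the mean of all probe sets of a gene, the calls of Mrpl51, Mrpl57 and Mrps18c were lost. The class medians were 0.02 and 0.04, and with array medians subtracted they were -0.05 and 0.01.

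Of the other genes of translation, Fbl, the methyltransferase of ribosomal RNA, was higher in striatum (log2 0.57, adjusted p = 1.52e-11) and in hippocampus (log2 0.56, adjusted p = 7.56e-11) than in frontal cortex. Ribosome assembly had 3 of 30 genes higher and 1 lower in striatum than in frontal cortex, mitochondrial translation and assembly 3 of 26 higher and 1 lower, other TOP mRNAs 3 of 14 higher and 1 lower, and the mTOR and Myc regulators 5 of 19 higher and 1 lower. Over all genes 22.8% were higher and 20.9% lower, so that the shares of the first 2 lists were below those of all genes. Mtg2, a GTPase of mitochondrial ribosome assembly, differed by 0.50 (adjusted p = 2.48e-11), and Aurkaip1 by 0.43 (adjusted p = 1.27e-10). Deptor, an inhibitor of mTOR, was higher in striatum by 1.12 (adjusted p = 1.15e-13), and Larp1 was lower (log2 -0.33, adjusted p = 8.03e-08).

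Members of a class varied together between rats of the same group. After each group's mean was removed, the median Pearson r between 2 cytosolic genes over the 45 arrays was 0.704, and it was 0.449 between 2 mitochondrial genes, 0.152 between the classes and 0.021 over all pairs of genes. These values are a description, since the genes share arrays, normalization and rats, and the cytosolic genes may share sequence with near-identical copies. By region, over 15 arrays each, r between cytosolic genes was 0.740 for frontal cortex, 0.657 for hippocampus and 0.704 for striatum. Between mitochondrial genes it was 0.606, 0.490 and 0.269. Of the 40 cytosolic genes, 37 had a higher median r with their own class, as had 65 of the 73 mitochondrial genes. The 3 cytosolic exceptions were named after their values were seen. Rpl7l1, a Rpl7 paralog with a place in ribosome assembly, had a median r of 0.45 with mitochondrial and -0.13 with cytosolic genes, Rpl6 of 0.40 and -0.01, and Rpl26l1, a Rpl26 paralog, of 0.20 and -0.07.

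**Figure D5:**
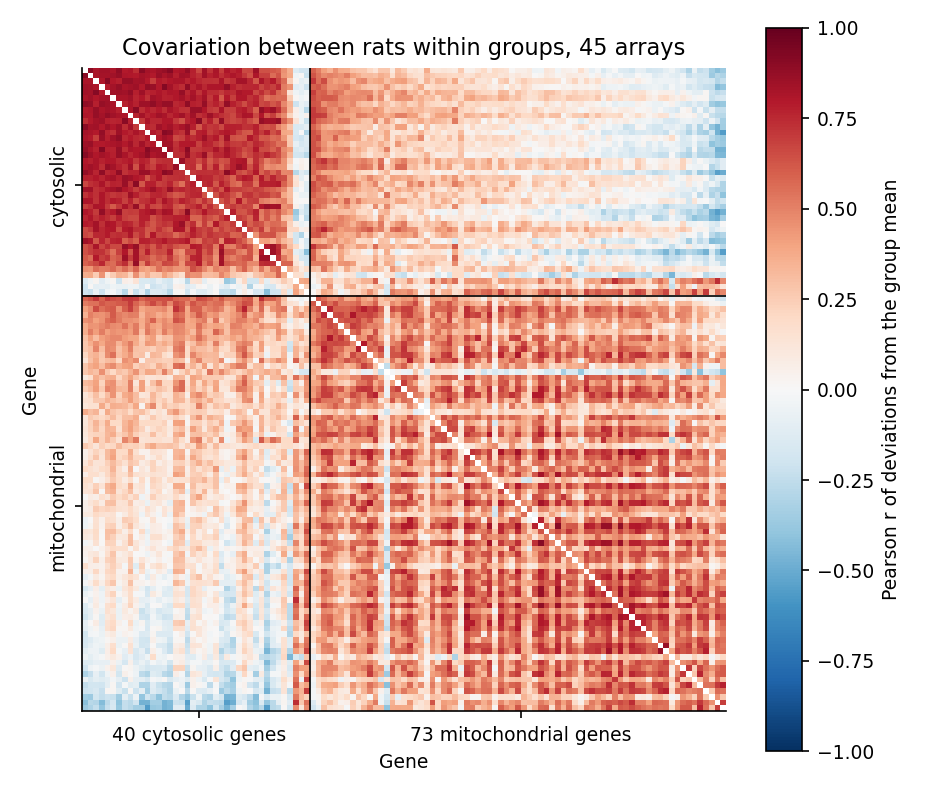
Pearson r between the tested ribosomal protein genes over the 45 arrays, after the mean of each of the 9 groups was removed. Genes are ordered by class, then by their median r with the cytosolic genes. The cytosolic block has a median of 0.704 and the mitochondrial block of 0.449, and the 3 cytosolic genes at the edge of their block are Rpl6, Rpl26l1 and Rpl7l1.

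The paralogs Rpl7l1 and Rpl26l1 were tested and were not called in any comparison. Rpl26l1 differed by -0.38 after haloperidol in hippocampus (standard error 0.16, adjusted p = 1). Rpl39l1, Rpl3l, Rps27l and Rps4y2 did not pass the filter, nor did Rpl28, Rpl30 and Rps13, which are common components of the ribosome. The group means of Rpl30 were 3.67 to 3.98 and those of Rpl28 4.75 to 5.38, and what their probe sets measure was not tested. Rps27l, a paralog of Rps27, was at 5.00 to 5.24 in vehicle and 4.74 to 5.81 in risperidone rats of frontal cortex.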

How the data were processed

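RNA of 3 brain regions from 15 rats was measured on 45 arrays. The authors ran RMA (R 2.7.2) for background correction, normalization between arrays and probe set summaries, and deposited linear intensity values of all arrays together. Whether all regions entered 1 normalization was not stated in the sources used here. All columns were used. Arrays have no read depth, and their number limits precision.

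Intensities were put on the log2 scale. Control probe sets were removed, and 18609 of 31099 probe sets whose mean reached the 40th percentile entered limma 3.58.1 (R 4.3.3, data.table version 1.17.8). Each region and treatment had a mean, and the rat was a random block (consensus correlation 0.226, and 0.228 for region comparisons, on quantile-normalized values). p-values were adjusted by Benjamini-Hochberg, each comparison by itself over all probe sets, and a call needed 1.2-fold or more with an adjusted p below 0.05. Counts over all genes use 1 probe set per gene. Probe sets of several genes were named for none. p-values rest on the spread of arrays around their group means, pooled over all groups and regions, and not on that of 1 group alone.

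Genes were named by rule: called members, up to 10 per class and direction for drugs and 5 for regions; the 3 with the smallest p per class in each drug comparison; paralogs; members that failed the filter; called genes of other lists. Not every gene of the rule is printed. Members, lists and rules were chosen with earlier results of these data known. Start sites were matched to RefSeq promoters on GRCr8. The test was checked on simulated data. Alternatives covered the filter, block, scaling, probe set choice, fold minimum, the RNA 3′ to 5′ ratio as a covariate, 12 arrays above 0.5 on the log2 scale in neighboring tissue markers, and each rat left out. Figures were drawn with matplotlib.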

Additional observations from a re-analysis of the deposited data

Results flagged for a closer look

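Among the genes with values by rat and the class medians, 5 single values lay far from the other 4 rats of their group, by a gap over the group's range above 0.71. Chance flags about 1 in 20 groups. Each gene and class was screened in all 9 groups, so that some flags by chance are to be expected. Rps28 was at 11.89 in risperidone rat 3 in hippocampus, where the others were at 11.58 to 11.66. Mrpl22 was at 9.12 in vehicle rat 3 in frontal cortex (others 8.87 to 8.94) and at 8.86 in haloperidol rat 4 in striatum (others 8.93 to 8.95). Mrpl40 was at 7.92 in haloperidol rat 5 in frontal cortex (others 7.67 to 7.74), an array high in olfactory bulb markers. Mrps6 was at 9.71 in vehicle rat 1 in striatum (others 8.93 to 9.10).

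The risperidone effect differed between regions in 8 tests. The effect was lower in striatum than in frontal cortex in Mrpl22 by a log2 difference of -0.32, Mrpl38 -0.30, Mrpl40 -0.28, Mrpl52 -0.31 and Mrps24 -0.30. It was lower in striatum than in hippocampus in Mrpl38 (-0.34) and Mrpl53 (-0.27). For Mrps18c the effect was 0.56 higher in hippocampus than in frontal cortex. Each of these calls was lost in at least 4 of the 10 fits that left out 1 rat.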

How the results depend on the processing

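The alternatives were another filter, block, scaling, probe set choice or fold minimum, a 3′ to 5′ covariate, and leaving out arrays or rats. Counts of called members stayed within 1.5 times their first value in 398 cases and moved in 73. The 398 cases include counts that were 0 in both fits, as in haloperidol comparisons, so they are no measure of stability. With no minimum fold, the counts were 14 cytosolic and 8 mitochondrial for risperidone in frontal cortex, and 1 mitochondrial in striatum. They were 7 for risperidone against haloperidol in frontal cortex, and 15 for the risperidone effect between striatum and frontal cortex. The 15 were 4 cytosolic and 11 mitochondrial genes, all with a lower effect in striatum. Of all genes, 3.07% had a lower and 0.829% a higher effect there. The shares of all genes for the other drug counts are given above. In vehicle rats the counts in either direction were 13 of 40 and 31 of 73 for hippocampus against frontal cortex, beside 5229 of all 10248 genes. They were 30 and 42 for striatum against frontal cortex, beside 6741, and 27 and 40 for striatum against hippocampus, beside 6807. The mitochondrial shares were thus below those of all genes in each comparison. The cytosolic share was below in hippocampus against frontal cortex, above in striatum against frontal cortex and near that of all genes in striatum against hippocampus. Without the arrays high in neighboring tissue markers, risperidone in frontal cortex gave 0 cytosolic and 1 mitochondrial gene, and the effect between striatum and frontal cortex or hippocampus gave 0 and 0. Quantile normalization gave 2 cytosolic genes for risperidone in frontal cortex, and 0 and 1 for these effects, and array medians subtracted gave 0 and 0. With no filter, no random block or the mean of probe sets, the effect between hippocampus and frontal cortex gave 0, and that between striatum and frontal cortex gave 0, 0 and 2. With no random block the effect between striatum and hippocampus gave 0. The mitochondrial median for risperidone in striatum, -0.044, was 0.006 with array medians subtracted and 0.005 after quantile normalization.

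As deposited, vehicle hippocampus against frontal cortex gave 12 and 39 genes, striatum against frontal cortex gave 2 cytosolic genes, and striatum against hippocampus 42 mitochondrial genes. The counts over all genes on that scale are given with these comparisons above. With no filter the first gave 2 cytosolic genes, and with array medians subtracted the second gave 3. As deposited, striatum against hippocampus turned in direction for Mrpl53 (-0.03), Rpl27 (-0.03), Rpl6 (-0.02), Rpl19 (-0.03), Rpl39 (-0.06), Mrpl33 (-0.02), Mrps24 (-0.03), Mrpl50 (-0.07), Rpl26 (-0.02), Mrpl40 (-0.01), Rpl24 (-0.03) and Mrpl2 (-0.02). The scaling itself shifted all genes there, by -0.30 in the median. Rps24 turned to -0.06 in striatum against frontal cortex with the mean of its probe sets. The cause of the other changes was not tested.

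With each rat left out, the counts ran from 1 to 2 cytosolic and 0 to 3 mitochondrial genes for risperidone in frontal cortex, and 0 to 1 mitochondrial genes in striatum. They ran from 0 to 8 for risperidone against haloperidol in frontal cortex, and from 0 to 1, 0 to 14 and 0 to 5 for the risperidone effect in hippocampus against frontal cortex, striatum against frontal cortex and striatum against hippocampus. In vehicle rats the cytosolic counts ran from 1 to 3, 5 to 10 and 4 to 9 in the same order. Counts over all genes in these fits are not given here, so the ranges are not read as a result about the members. Replicate numbers name different rats in each treatment, and same-numbered rats correlated at -0.38 to 0.55, with 9 of 45 best with their own number. With the replicate number as a block, risperidone in frontal cortex gave 1 cytosolic and 0 mitochondrial genes, with medians of 0.137 and 0.099. The number of arrays limits precision.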
